A study of Mus musculus with 12 samples.

Results

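The genes described here are Csf3r, which encodes the receptor for granulocyte colony-stimulating factor, and 8 other receptor genes through which myeloid cells read cytokines: Csf2ra, Csf2rb, Csf2rb2, Il3ra, Il5ra, Il6ra, Il6st and Epor. They were taken by symbol from the deposited count table, in which all 9 were among the 24411 symbols. All 9 also passed the filter on low counts, which kept 11578 genes. RNA came from HoxB8 cells, a mouse marrow progenitor line held immature by an estrogen-dependent Hoxb8. Cells of all 4 groups were grown in RPMI with serum, stem cell factor-conditioned medium and estrogen, and estrogen was withdrawn for 24 h before extraction.

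Every population carried 2 vectors, and each group had 3 libraries. Empty/Empty cells had an empty pMIG and an empty pMICH vector. Empty/T618I cells had an empty pMIG and CSF3R T618I, a mutant form of the receptor, in pMICH. Asxl1-MT2/Empty cells had Asxl1-MT2, a truncated form of the chromatin regulator Asxl1, in pMIG and an empty pMICH. Asxl1-MT2/T618I cells had both inserts. Whether a population was a clone, a pool or a sorted fraction is not given in the sources used here, nor is whether reads of the CSF3R T618I insert were counted to mouse Csf3r.

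Type I cytokine receptors have no kinase of their own and signal through Janus kinases bound to their tails, which phosphorylate STAT proteins. Csf3r and Epor each act as homodimers, for granulocyte colony-stimulating factor and erythropoietin. Il6ra binds interleukin 6 and then recruits Il6st, the signalling subunit shared by the interleukin 6 family. Csf2ra, Il3ra and Il5ra are ligand-binding alpha chains for granulocyte-macrophage colony-stimulating factor, interleukin 3 and interleukin 5, and all of them signal through the common beta chain Csf2rb. Mice carry a second beta chain gene, Csf2rb2, whose product pairs with Il3ra and serves interleukin 3 only. In marrow these receptors govern the output of neutrophils, monocytes, eosinophils, mast cells, basophils and red cells.

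Library totals lay between 9341984 and 10252291 counts, and replicate libraries differed beyond counting error. Columns name libraries A, B and C within a group. The library titled Empty/Empty 3 carries a genotype label that names CSF3R T618I, and nothing ties a title number to a column letter, so each Empty/Empty library was also left out in turn. Socs3, a feedback gene of these receptors, was at 13.8, 11.9 and 12.4 CPM (counts scaled to a common library total) in libraries A, B and C of the Empty/Empty group, against 151 to 176 CPM in Empty/T618I, so no Empty/Empty library was near the T618I level. The progenitor markers Mpo, Elane, Prtn3, Ctsg, Kit, Cd34 and Hoxb8 together ran from 33273 to 41946 CPM in Empty/Empty and from 37404 to 41806 CPM in Asxl1-MT2/Empty. They ran from 15559 to 18382 CPM in Empty/T618I and from 13882 to 18311 CPM with both inserts, so this list was lower beside every T618I difference given below, and its part in them was not tested. With T618I, 6 of its 7 members were called lower in both backgrounds, where 15.9% of all genes were lower without Asxl1-MT2 and 22.8% with it. Hoxb8 is 1 of these 6, and whether its reads came from the estrogen-dependent Hoxb8 is not given. Mpo made up most of each sum, at a mean of 29713 CPM in Empty/Empty. Against that group, Asxl1-MT2/Empty had Cd34 called lower (222 to 113 CPM) and Elane called higher (1119 to 1640 CPM). Of all genes, 0.622% were called lower and 1.24% higher there. The lymphoid markers did not exceed 3.09 CPM in any library, and the globin genes Hba-a1, Hba-a2, Hbb-bs and Hbb-bt had 0 counts in all 12. In bulk RNA, fewer cells of a type and less RNA per cell cannot be told apart.

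The genes lie apart in the genome except for the beta chain pair. In GENCODE vM21 coordinates on GRCm38 (mm10), Csf2rb spans chr15:78325752-78353847 on the plus strand and Csf2rb2 spans chr15:78282507-78305721 on the minus strand, so that they point away from each other across a gap of 20.03 kb. Their coding sequences are 2688 and 2634 bases long, and 2503 of the 2628 aligned bases, or 95.2%, are identical. A read can be told apart only where the genes differ. Of the 100-base windows of each transcript, 6.96% of those in Csf2rb and 7.20% of those in Csf2rb2 also occur in the other gene. The following 90 coding bases, shown because they hold the most differences of any such stretch, run from coding base 308 of Csf2rb and from coding base 311 of Csf2rb2, with the 16 differing bases in capitals.
Csf2rb: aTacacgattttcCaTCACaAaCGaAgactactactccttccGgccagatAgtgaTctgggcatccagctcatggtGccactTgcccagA
Csf2rb2: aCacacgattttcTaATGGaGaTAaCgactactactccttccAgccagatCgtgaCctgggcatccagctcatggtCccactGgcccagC

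RefSeq promoter windows (GRCm38.p6, 250 bases before to 50 after the annotated start) were found for 8 of the 9 genes. They were searched on both strands for short motifs of 4 kinds of transcription factor: STAT, PU.1, C/EBP and GATA factors. The 4 windows below belong to the genes whose levels changed most between groups or differed between backgrounds, and capitals mark the matches, written as they read on the printed strand.
Csf2rb2, chr15:78305672-78305971, minus strand: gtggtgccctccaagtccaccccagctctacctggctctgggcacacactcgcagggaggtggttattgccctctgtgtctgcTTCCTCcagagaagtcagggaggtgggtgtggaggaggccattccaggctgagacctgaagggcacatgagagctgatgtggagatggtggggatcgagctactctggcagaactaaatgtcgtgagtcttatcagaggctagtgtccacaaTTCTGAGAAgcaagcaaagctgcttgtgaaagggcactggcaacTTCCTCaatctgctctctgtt
Csf3r, chr4:126024409-126024708, plus strand: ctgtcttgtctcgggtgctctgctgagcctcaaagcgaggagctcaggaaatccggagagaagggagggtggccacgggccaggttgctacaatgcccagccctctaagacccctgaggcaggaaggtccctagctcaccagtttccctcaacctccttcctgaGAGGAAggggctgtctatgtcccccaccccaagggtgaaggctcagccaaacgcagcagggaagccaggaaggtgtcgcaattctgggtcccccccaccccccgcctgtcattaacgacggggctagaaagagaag
Csf2ra, chr19:61228369-61228668, minus strand: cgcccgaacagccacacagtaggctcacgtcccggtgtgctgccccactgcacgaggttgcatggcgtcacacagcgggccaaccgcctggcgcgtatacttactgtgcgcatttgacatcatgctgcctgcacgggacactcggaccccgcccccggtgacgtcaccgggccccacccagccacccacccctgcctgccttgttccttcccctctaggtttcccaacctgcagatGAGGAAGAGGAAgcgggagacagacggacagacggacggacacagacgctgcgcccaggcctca
Il6ra, chr3:89913147-89913446, minus strand: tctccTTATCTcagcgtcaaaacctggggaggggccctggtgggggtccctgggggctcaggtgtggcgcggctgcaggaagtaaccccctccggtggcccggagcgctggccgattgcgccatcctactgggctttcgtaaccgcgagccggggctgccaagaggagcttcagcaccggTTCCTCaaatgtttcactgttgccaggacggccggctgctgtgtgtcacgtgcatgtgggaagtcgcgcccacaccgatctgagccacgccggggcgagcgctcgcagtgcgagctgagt

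The STAT letters TTCNNNGAA occurred in 1 of the 8 windows, that of Csf2rb2, as TTCTGAGAA starting 15 bases before the start site, and they occur in 8.30% of the 32851 promoter windows in the table. The PU.1 letters GAGGAA were present in 5 of the 8 windows (Csf3r, Csf2ra, Csf2rb2, Il5ra and Il6ra) against 28.3% of all windows. The C/EBP letters TTGCNNAA were present in 1 window (Il3ra) against 10.8% of all. The GATA letters AGATAA were present in 3 (Il5ra, Il6ra and Epor) against 11.2% of all. These are matches of letters in short windows and not measured binding.

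Below, T618I alone means Empty/T618I against Empty/Empty, and Asxl1-MT2 alone means Asxl1-MT2/Empty against Empty/Empty. The cells with both inserts are compared with each single-insert group, as Asxl1-MT2 added to T618I and T618I added to Asxl1-MT2. Levels given for T618I alone or Asxl1-MT2 alone are those of the single-insert groups. T618I alone went with more RNA of both beta chain genes, Csf3r, Il6st and Epor and with less of the alpha chains Csf2ra and Il3ra. Of the 9 receptor genes, 5 were called higher and 2 lower by edgeR's quasi-likelihood test at an adjusted p under 0.05, where 33.5% of all tested genes were called (17.6% higher and 15.9% lower). Asxl1-MT2 alone changed 1 of the 9, a fall of Il5ra, where 1.86% of all genes were called (1.24% higher and 0.622% lower). The 215 genes behind that share became 60 when Asxl1-MT2/Empty A was left out, 106 when Asxl1-MT2/Empty B was, and 101, 104 or 136 when Empty/Empty A, B or C was. Adding Asxl1-MT2 to T618I raised 4 receptor genes, Csf3r, Il6ra, Csf2ra and Il3ra, and lowered 2, Csf2rb2 and Epor, where 43.9% of all genes were called (25.4% higher and 18.5% lower). Adding T618I to Asxl1-MT2 raised 8 of the 9, while Il3ra was lower and not called, where 49.8% of all genes were called (26.9% higher and 22.8% lower). Epor counts among the raised genes in both T618I comparisons. It passed the low-count filter only through groups with T618I, so the direction of its rise was set by the filter. The T618I change differed between the backgrounds, by the interaction term, for Csf3r, Csf2ra and Il6ra, each time toward a larger rise with Asxl1-MT2, where 19.6% of all genes were called (14.1% higher and 5.51% lower). Without Empty/Empty library C, Il3ra and Il5ra were called as well, 5 in all.

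The median log2 fold change of the 9 genes was 0.53 for T618I alone, -0.16 for Asxl1-MT2 alone, 0.22 for Asxl1-MT2 added to T618I and 2.12 for T618I added to Asxl1-MT2, where the medians over all tested genes lay between -0.015 and 0.011. The 2.12 is the value of Epor, whose direction was set by the low-count filter. The 4 comparisons share groups with one another, so their values are given side by side and not as independent evidence. The scaling matters for the background: with upper-quartile factors the all-gene median moved by -0.11 for Asxl1-MT2 added to T618I and by -0.13 for T618I added to Asxl1-MT2. The share of called genes that were higher then went from 57.8% to 40.9%, from 54.1% to 37.8% and, for the interaction, from 71.9% to 47.5%. No called receptor gene changed direction with that scaling.

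**Figure D1:**
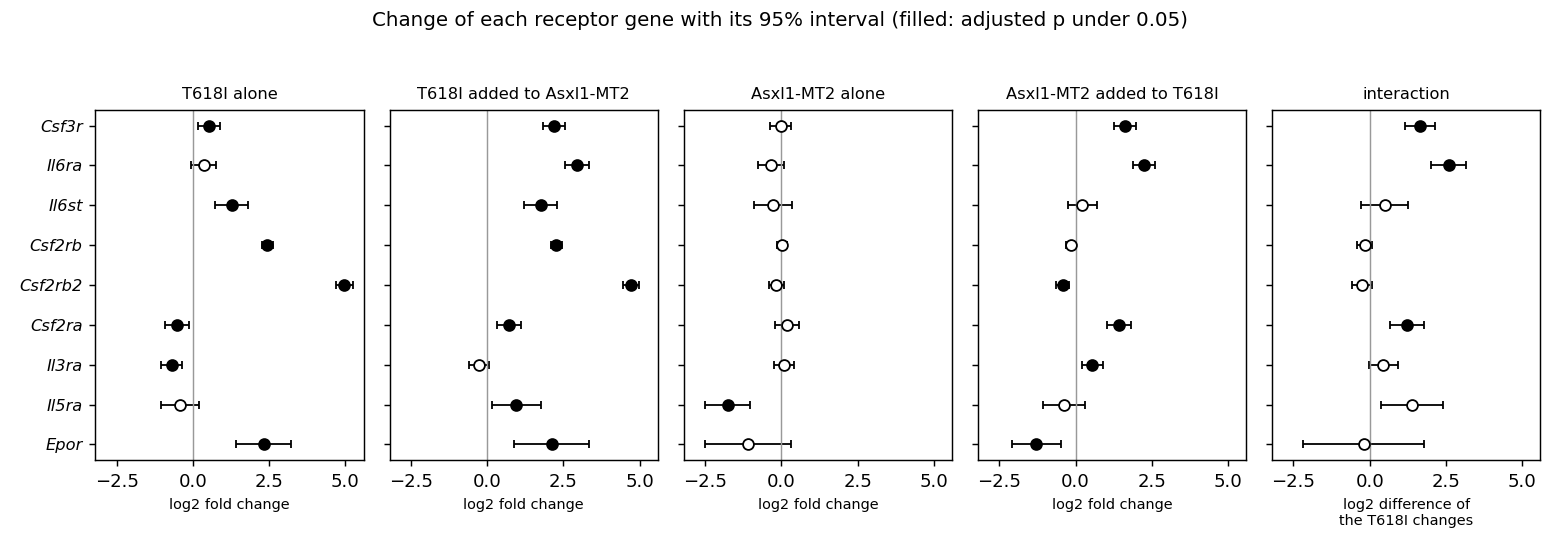
Log2 fold change with 95% interval for each of the 9 receptor genes in the 4 comparisons and the interaction, from edgeR's quasi-likelihood fit, with filled points called at an adjusted p under 0.05. Csf2rb2 and Csf2rb stand far to the right of 0 with T618I in both backgrounds, while Csf3r, Il6ra and Csf2ra are the genes with called rises on adding Asxl1-MT2 to T618I of at least 1.42 on the log2 scale.

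Csf3r itself (chr4:126024550-126044440, plus strand) had 337, 324 and 231 CPM in libraries A, B and C of the Empty/Empty group, the order kept below. The Empty/T618I libraries had 451, 455 and 385 CPM. The Asxl1-MT2/Empty libraries had 320, 306 and 253 CPM, and those with both inserts had 1687, 1334 and 966 CPM. All 3 libraries with both inserts were above every other library, the Empty/T618I libraries were above both groups without T618I, and the 2 groups without T618I overlapped. Library C was the lowest of its group in all 4 groups.

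The rise of Csf3r with T618I alone was 0.53 ± 0.167 (log2 fold change ± SE, edgeR adjusted p = 0.0198), a 1.45-fold difference with a 95% interval of 1.13 to 1.85. It was no longer called without Empty/Empty library C, where it was 0.40 with an adjusted p of 0.0746. With Asxl1-MT2 present, T618I went with a 4.53-fold rise (log2 2.18 ± 0.172, adjusted p = 1.4e-08). The difference between those changes was 1.65 ± 0.236 (adjusted p = 0.000134). Adding Asxl1-MT2 to T618I raised Csf3r 3.08-fold (1.63 ± 0.169, adjusted p = 8.5e-07), and Asxl1-MT2 alone gave -0.02 ± 0.167. Since reads of the insert may be counted here, these values are of Csf3r-assigned reads, endogenous and inserted together if so. The 2 T618I groups carry the same insert by their labels, and whether its level differed between them was not tested.

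**Figure D2:**
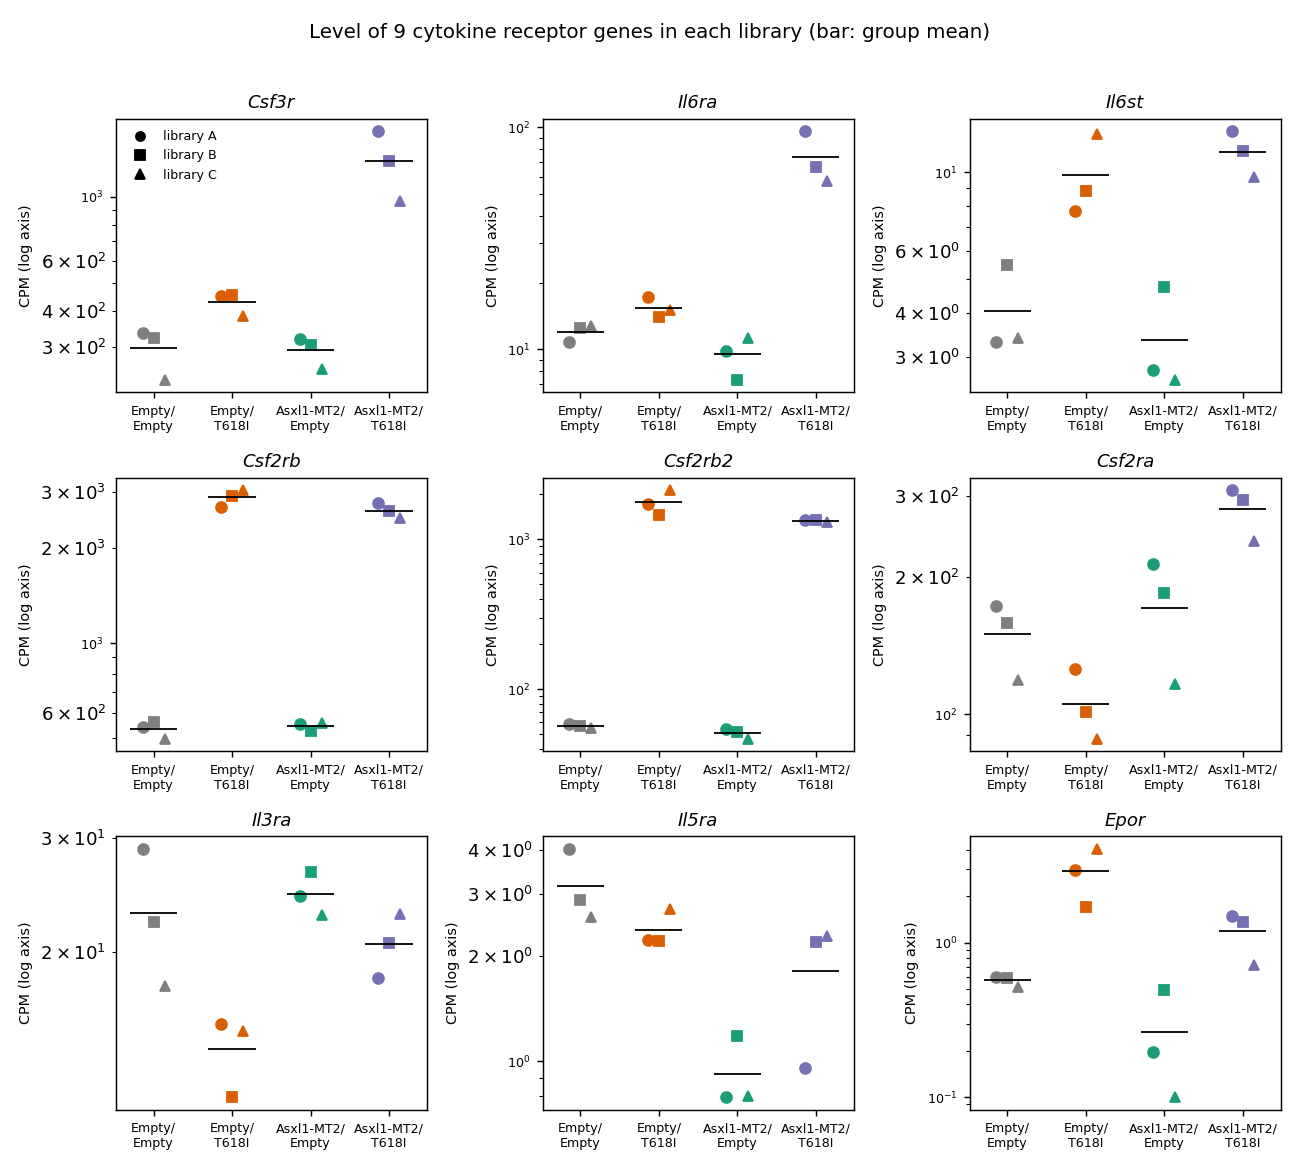
CPM (log axis) of each of the 9 receptor genes in the 12 libraries, with 1 point per library, its shape giving the letter, and a bar at the mean of each group of 3. In Csf3r, Csf2ra and Il6ra the 3 Asxl1-MT2/T618I libraries lie above all others, while in Csf2rb, Csf2rb2, Il6st and Epor the libraries with T618I in both backgrounds lie above those without it.

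Il6ra, the interleukin 6 binding chain (chr3:89864059-89913196, minus strand), had the largest difference between backgrounds of the 9. Its levels were 10.8, 12.5 and 12.8 CPM in the Empty/Empty libraries and 17.3, 13.9 and 15.02 CPM with T618I alone. Those with Asxl1-MT2 alone had 9.88, 7.30 and 11.3 CPM. With both inserts it was at 96.1, 66.6 and 57.3 CPM, well clear of the other 9 libraries.

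T618I added to Asxl1-MT2 raised Il6ra 7.73-fold (log2 2.95 ± 0.185, edgeR adjusted p = 7.49e-10), and Asxl1-MT2 added to T618I raised it 4.75-fold (2.25 ± 0.175, adjusted p = 3.41e-08). T618I alone gave 0.36 ± 0.195, which was not called (adjusted p = 0.176, 95% interval -0.05 to 0.77), and Asxl1-MT2 alone gave -0.34 ± 0.207. The interaction was 2.59 ± 0.270 (adjusted p = 1.13e-05). As a ratio of ratios it was 6.03-fold, with an interval of 4.06 to 8.95, and it stood at rank 32 by p-value among the 11578 genes.

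Il6st, the shared signalling subunit (chr13:112464070-112510086, plus strand), followed T618I in both backgrounds and was low throughout. Its levels were 3.32, 5.46 and 3.40 CPM in the Empty/Empty libraries and 7.78, 8.87 and 12.8 CPM with T618I alone. They were 2.77, 4.73 and 2.59 CPM with Asxl1-MT2 alone and 13.1, 11.5 and 9.70 CPM with both inserts. The T618I groups overlapped each other and lay above the other groups, which also overlapped. The rise was 1.26 ± 0.254 with T618I alone (edgeR adjusted p = 0.000834) and 1.76 ± 0.258 with T618I added to Asxl1-MT2 (adjusted p = 2.47e-05). The difference of 0.49 ± 0.368 between them was not called (adjusted p = 0.376). Adding Asxl1-MT2 to T618I gave 0.22 ± 0.226 for Il6st, while the same comparison raised its partner Il6ra.

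Csf2rb, the common beta chain, had 541, 562 and 499 CPM in the Empty/Empty libraries and 2695, 2920 and 3051 CPM with T618I alone. It had 553, 526 and 558 CPM with Asxl1-MT2 alone and 2767, 2614 and 2494 CPM with both inserts. The 6 T618I libraries were far above the 6 others, and within each of these sets the backgrounds overlapped. T618I alone raised Csf2rb 5.41-fold (log2 2.44 ± 0.0822, edgeR adjusted p = 1.41e-12), the fifth smallest p-value of all tested genes, and T618I added to Asxl1-MT2 raised it 4.81-fold (2.27 ± 0.0817, adjusted p = 1.49e-12). Asxl1-MT2 alone gave 0.03 ± 0.0785. Its addition to T618I gave -0.14 ± 0.0778, which was not called (adjusted p = 0.162). With upper-quartile factors that fall was -0.25 and called (adjusted p = 0.0123).

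Csf2rb2, the mouse beta chain for interleukin 3, had the smallest p-value of all 11578 genes with T618I in both backgrounds. It had 58.3, 56.9 and 55.2 CPM in the Empty/Empty libraries and 1729, 1462 and 2137 CPM with T618I alone. It had 54.1, 51.5 and 46.8 CPM with Asxl1-MT2 alone and 1337, 1338 and 1301 CPM with both inserts. No 2 groups overlapped, and the order from high to low was T618I alone, both inserts, Empty/Empty and Asxl1-MT2 alone.

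T618I alone raised Csf2rb2 31.3-fold (log2 4.97 ± 0.126, 95% interval 26.0 to 37.6 fold, edgeR adjusted p = 6.15e-14). On top of Asxl1-MT2, T618I raised it 26.1-fold (4.71 ± 0.125, interval 21.7 to 31.3 fold, adjusted p = 1.14e-13). The difference between these rises was -0.26 ± 0.156, with an interval of -0.59 to 0.07, and was not called (adjusted p = 0.259). On top of T618I, Asxl1-MT2 lowered Csf2rb2 to 0.746 of its level (-0.42 ± 0.105, adjusted p = 0.0036). Asxl1-MT2 alone gave -0.16 ± 0.116 and was not called (adjusted p = 0.751), although those groups of 3 did not overlap.

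The pair therefore changed in proportion as well as in level. Csf2rb2 held 9.72%, 9.19% and 9.96% of the counts of the pair in the Empty/Empty libraries, and 39.1%, 33.4% and 41.2% with T618I alone. It held 8.92%, 8.91% and 7.74% with Asxl1-MT2 alone and 32.6%, 33.9% and 34.3% with both inserts. The lowest share with T618I, 32.6%, had an exact 95% binomial interval of 32.1% to 33.0%, and the highest share without it, 9.96%, had one of 9.17% to 10.8%. These intervals cover counting error only, since PCR copies are not independent molecules.

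Together the beta chains took a mean of 0.0606% of all counts in the Empty/Empty libraries and 0.478% with T618I alone, and 0.0603% and 0.371% in the Asxl1-MT2 groups without and with T618I. How the authors' counting handled reads that match both genes is not given in the sources used here. As a single feature, which does not depend on how such reads were split, the pair rose 7.90-fold with T618I alone (log2 2.98 ± 0.0882, edgeR adjusted p = 8.01e-13). It rose 6.63-fold with T618I added to Asxl1-MT2 (2.73 ± 0.0873, adjusted p = 4.88e-13). The fall of the sum on adding Asxl1-MT2 to T618I was -0.24 ± 0.0817 (adjusted p = 0.0246).

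**Figure D3:**
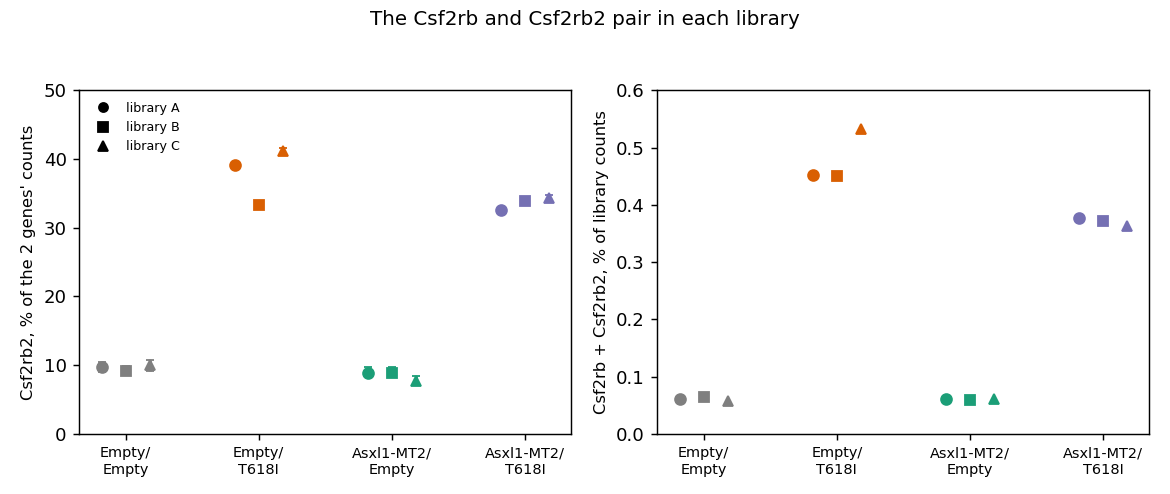
Left, share of the counts of Csf2rb and Csf2rb2 together that fell on Csf2rb2, in percent, with exact 95% binomial intervals as bars; right, counts of the pair as a percent of all counts; 1 point per library, with the shape giving its letter. The 6 libraries without T618I lie between 7.74% and 9.96% and the 6 with it between 32.6% and 41.2% on the left.

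Of the genes around the pair, 6 others within 200 kb on each side were tested, and their changes ran both ways. With T618I alone, Ift27, Tst and Mpst fell, by 0.62, 0.85 and 0.34 on the log2 scale (edgeR adjusted p = 0.000427, 4.44e-05 and 0.0219). C1qtnf6 rose by 2.28 (adjusted p = 0.000194) and Kctd17 by 0.43 (adjusted p = 0.0451), while Ncf4, which encodes a subunit of the phagocyte NADPH oxidase, gave 0.06 (adjusted p = 0.711). With T618I added to Asxl1-MT2, Ncf4 rose by 0.81 (adjusted p = 3.98e-06) and Ift27 fell by 0.56 (adjusted p = 0.000659). Tst, Mpst, Kctd17 and C1qtnf6 gave -0.04, 0.04, 0.20 and 0.60, none of them called.

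**Figure D4:**
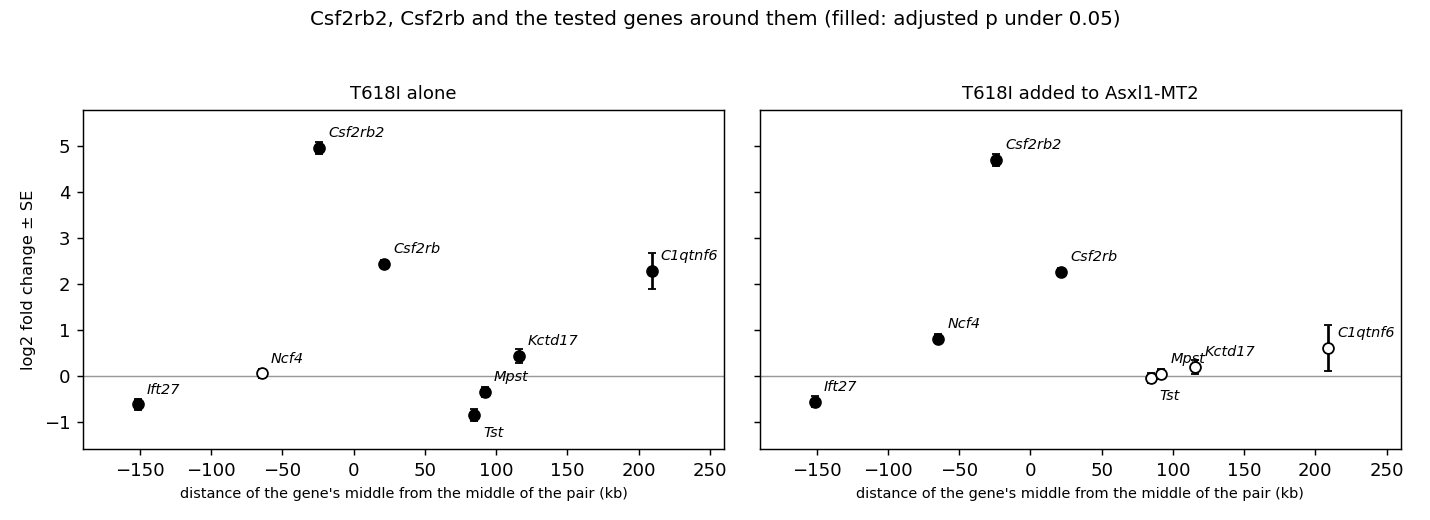
Log2 fold change ± SE of Csf2rb, Csf2rb2 and the 6 other tested genes within 200 kb, against the distance in kb of each gene's middle from the middle of the pair, for T618I alone (left) and added to Asxl1-MT2 (right), with filled points called by edgeR. Csf2rb2 is the highest point in both panels, and C1qtnf6, at 2.28 and with few counts, is close to Csf2rb on the left only.

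The alpha chains had smaller fitted changes than the beta chains with T618I, and 2 of them fell with T618I alone. Csf2ra, the granulocyte-macrophage colony-stimulating factor binding chain (chr19:61223957-61228429, minus strand), had 173, 158 and 119 CPM in the Empty/Empty libraries and 126, 101 and 88.4 CPM with T618I alone. It had 213, 184 and 116 CPM with Asxl1-MT2 alone and 309.8, 294 and 239 CPM with both inserts. The libraries with both inserts were above all others, the other 3 groups overlapped, and library C was again the lowest of each group.

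Adding Asxl1-MT2 to T618I raised Csf2ra by 1.42 ± 0.187 on the log2 scale (edgeR adjusted p = 1.19e-05), and T618I added to Asxl1-MT2 raised it by 0.71 ± 0.183 (adjusted p = 0.00375). T618I alone went the other way, at -0.51 ± 0.186 (adjusted p = 0.0425). That call was lost with DESeq2 (adjusted p = 0.0938) and on leaving out any 1 of 6 libraries: Empty/Empty A or B, Empty/T618I B or C, Asxl1-MT2/Empty B or Asxl1-MT2/T618I B. The adjusted p then reached 0.161. The difference between backgrounds was 1.23 ± 0.261 (adjusted p = 0.00314), and Asxl1-MT2 alone gave 0.19 ± 0.184.

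Il3ra, the interleukin 3 binding chain (chr14:14346275-14356011, plus strand), had 28.9, 22.3 and 17.7 CPM in the Empty/Empty libraries and 15.5, 11.9 and 15.1 CPM with T618I alone. It had 24.4, 26.6 and 22.8 CPM with Asxl1-MT2 alone and 18.3, 20.7 and 22.9 CPM with both inserts. Empty/T618I was the lowest group and overlapped none of the others, which overlapped among themselves. T618I alone lowered Il3ra (log2 -0.70 ± 0.161, edgeR adjusted p = 0.00265). Asxl1-MT2 on top of T618I raised it by 0.54 ± 0.163 (adjusted p = 0.0126). That call was lost without Empty/T618I B or Asxl1-MT2/T618I C, with adjusted p of 0.0732 and 0.0589. T618I on top of Asxl1-MT2 gave -0.26 ± 0.156, not called (adjusted p = 0.184). That fall was called with upper-quartile factors (-0.38, adjusted p = 0.0476) and without all C libraries (-0.39, adjusted p = 0.0498).

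Il5ra, the interleukin 5 binding chain (chr6:106710357-106749037, minus strand), had few reads: 40, 29 and 25 counts in the Empty/Empty libraries, 23, 23 and 26 with T618I alone, 8, 12 and 8 with Asxl1-MT2 alone and 9, 21 and 22 with both inserts. In CPM the group means ± SD (n = 3) were 3.16 ± 0.763, 2.37 ± 0.294, 0.924 ± 0.225 and 1.81 ± 0.738. Asxl1-MT2 alone lowered it (log2 -1.76 ± 0.348, edgeR adjusted p = 0.0127), and these groups did not overlap. The call was lost without Empty/Empty A, Asxl1-MT2/Empty A or Asxl1-MT2/Empty C, with adjusted p of 0.0767, 0.0870 and 0.0526. T618I on top of Asxl1-MT2 raised Il5ra by 0.96 ± 0.379 (adjusted p = 0.0447), a call lost in 12 of 20 other settings, in which the adjusted p reached 0.270. Some eosinophil markers moved beside it: Prg2, the eosinophil major basic protein, was at 130 ± 30.6 CPM in Empty/Empty and 29.1 ± 4.97 CPM in Asxl1-MT2/Empty. Siglecf did not, at 86.2 ± 6.51 and 94.2 ± 2.80 CPM. The 9 listed eosinophil genes together ran from 229 to 316 CPM and from 142 to 145 CPM in those groups. Of the 5 tested members 2, Prg2 and Prg3, were called lower (0.622% of all genes were). Siglecf (log2 0.13), Epx (-1.57) and Alox15 (-0.46) were not called. The part of those cells in the fall of Il5ra was not tested.

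Per kilobase of exon, levels can be set roughly side by side between genes, and the order of receptors depended on the group. The length was that of all bases in any annotated transcript, 7277 for Csf2rb (8 transcripts) and 4740 for Csf2rb2 (4 transcripts). A shorter transcript in use would give a higher level, so the orders and ties below hold for these lengths only. In the Empty/Empty libraries Csf3r (82.4 ± 15.9 CPM per kb), Csf2rb (73.4 ± 4.47) and Csf2ra (52.3 ± 9.66) led, the first 2 within their spread, ahead of Csf2rb2 (11.98), Il3ra (7.74) and Il6ra (1.39). In Empty/T618I, Csf2rb (397 ± 24.7) and Csf2rb2 (375 ± 71.8), again within their spread, led ahead of Csf3r (119 ± 10.9). In Asxl1-MT2/T618I, Csf3r (368 ± 99.9) and Csf2rb (361 ± 18.8) differed by less than their spread, followed by Csf2rb2 (279.6 ± 4.51) and Csf2ra (97.9). With Asxl1-MT2 alone the leading order was that of the Empty/Empty libraries, with Csf3r at 81.2, Csf2rb at 75.0 and Csf2ra at 59.6. Il5ra, Il6st and Epor stayed at or under 1.47 CPM per kb in every group.

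The ratio of the summed beta chains to Csf2ra was taken per kilobase on the same exon lengths, so its size depends on them. It was 1.66 ± 0.249 in the Empty/Empty libraries and 21.7 ± 5.89 with T618I alone. It was 1.54 ± 0.522 with Asxl1-MT2 alone and 6.60 ± 0.703 with both inserts. Against Il3ra it was 11.4 ± 2.29, 163 ± 19.1, 10.4 ± 1.01 and 93.2 ± 13.9 in the same order. For both of these the ratio was highest with T618I alone. Against Il5ra, which had few counts, it was 99.6 ± 19.6, 1164 ± 22.3, 345 ± 81.0 and 1499 ± 850 in that order, with the highest mean and the widest spread in the cells with both inserts.

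Epor, the erythropoietin receptor (chr9:21958897-21963506, minus strand), had the fewest reads of the 9: 6, 6 and 5 counts in the Empty/Empty libraries, 31, 18 and 39 with T618I alone, 2, 5 and 1 with Asxl1-MT2 alone and 14, 13 and 7 with both inserts. In CPM that was 0.572 ± 0.0488, 2.92 ± 1.18, 0.263 ± 0.205 and 1.19 ± 0.408, and no 2 groups overlapped. T618I alone raised Epor by 2.32 ± 0.432 (edgeR adjusted p = 0.000416), and T618I added to Asxl1-MT2 raised it by 2.12 ± 0.583 (adjusted p = 0.00635). Epor had too few counts without T618I to pass the low-count filter there, so the direction of both rises was set by the filter. Passing chiefly through Empty/T618I also favours a fall on adding Asxl1-MT2. On top of T618I, Asxl1-MT2 lowered Epor (log2 -1.28 ± 0.380, adjusted p = 0.0116). That call was lost without Empty/T618I library C, at -1.004 (adjusted p = 0.0605), and without all C libraries the change was -0.75 (adjusted p = 0.155).

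Erythroid markers moved beside Epor at similarly low levels. Klf1, an erythroid transcription factor, went from 0.814 CPM in the Empty/Empty libraries to 3.88 CPM with T618I alone (log2 2.23, edgeR adjusted p = 0.00148). The summed erythroid list ran from 0.993 to 2.17 CPM and from 3.91 to 21.1 CPM in those groups, while the 4 globin genes had 0 counts. The 2 members tested, Klf1 and Car1, were both called higher (17.6% of all genes were). Both had too few counts without T618I to pass the low-count filter there, so this direction was set by the filter. A count of 0 in all libraries allows up to 0.0252 CPM for counting error, taking 3 counts of the summed total. The part of such cells in the change of Epor was not tested.

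Beside the fall of the progenitor list with T618I, marker lists of mature cells moved with the receptors too. The 10 mature neutrophil genes, among them Ltf, Camp, Ngp and Mmp8, summed to 1083 to 1913 CPM in the Empty/Empty libraries. With T618I alone the sum was 2890 to 3844 CPM, and with Asxl1-MT2 alone 1516 to 2275. With both inserts it was 16932 to 23929 CPM. T618I alone raised 7 of the 10 (17.6% of all genes were higher) and lowered 1, Camp (log2 -2.02, 15.9% of all genes were lower). Ltf (0.09) and Ngp (-0.60) were not called. The libraries with both inserts were the highest, as they were for Csf3r, Il6ra and Csf2ra. All 10 genes were called higher on adding Asxl1-MT2 to T618I (25.4% of all genes were). The 8 monocyte and macrophage genes also had their highest sums with both inserts, at 450 to 601 CPM. Their sums were 269 to 276 CPM in Empty/Empty, 205 to 227 with T618I alone and 334 to 386 with Asxl1-MT2 alone. Of the 7 tested, 5 were called higher and 0 lower on adding Asxl1-MT2 to T618I. The 13 mast cell and basophil genes, among them Mcpt8, Cpa3 and Fcer1a, summed to 1093 to 1279 CPM in the Empty/Empty libraries, 3502 to 6703 with T618I alone, 677 to 723 with Asxl1-MT2 alone and 3651 to 4061 with both inserts. All 13 were called higher with T618I in both backgrounds, as both beta chains were, where 17.6% and 26.9% of all genes were higher. Several of the 13, such as Mcpt1 and Fcer1a, passed the low-count filter only through groups with T618I. Their direction was therefore set by the filter. Mast cells, basophils and neutrophils express these receptors, and the part of a changed cell mix in the receptor changes was not tested.

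**Figure D5:**
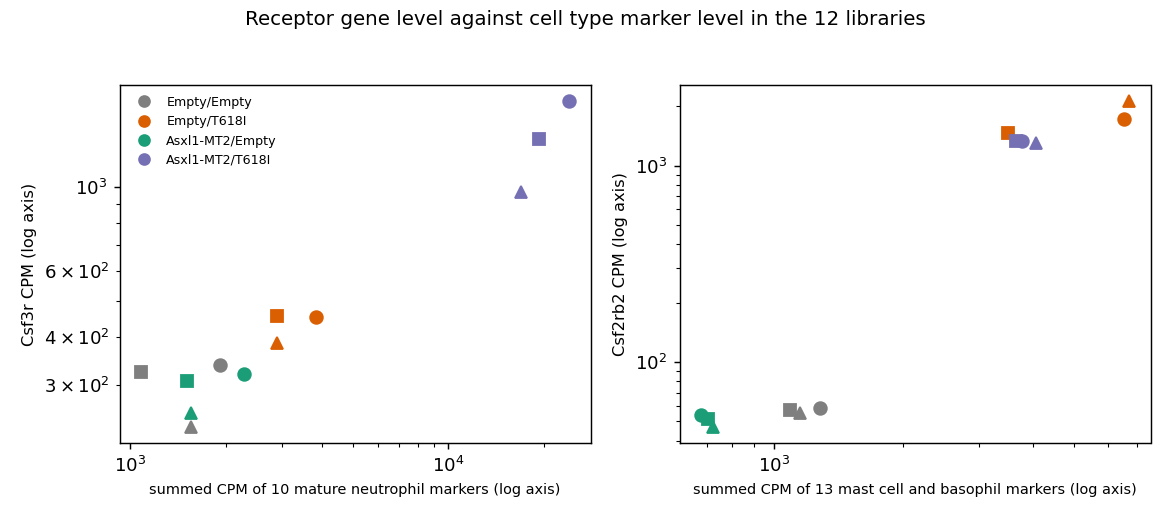
Left, CPM of Csf3r against the summed CPM of 10 mature neutrophil markers; right, CPM of Csf2rb2 against that of 13 mast cell and basophil markers; log axes, 1 point per library, coloured by group. The 3 libraries with both inserts lie at the top right on the left panel, at 16932 to 23929 CPM of neutrophil markers, and the 6 with T618I at the top right on the right panel, at 3502 to 6703 CPM of mast cell and basophil markers against 677 to 1279 CPM in the others.

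Most ligands of these receptors were at or near 0 counts. Over all 12 libraries Il3, Csf2, Epo and Thpo had 0 counts, Il5 had 2 and Csf3 had 6. Of 17 listed cytokine genes 8 were tested. Some genes here and in the lists below passed the low-count filter only through groups with T618I, among them Lif, Il6, Osmr, Il7r and Socs1. They tilt the counts and medians of their lists upward for both T618I comparisons. Flt3 passed only through libraries without T618I and tilts its list downward there. Il10ra passed only through the cells with both inserts, and Il9r only through Empty/T618I. The direction of their calls on adding Asxl1-MT2 to T618I (log2 2.67 and -1.34) was therefore also set by the filter. The lists that follow are read against the shares of all tested genes that were called: 33.5% for T618I alone, 1.86% for Asxl1-MT2 alone, 43.9% for Asxl1-MT2 added to T618I and 49.8% for T618I added to Asxl1-MT2. With T618I alone 4 ligands were higher (17.6% of all genes were) and 0 lower (15.9%), with a median log2 fold change of 1.78, led by Lif (5.35 ± 0.452, edgeR adjusted p = 2.24e-07) and Csf1 (4.96 ± 0.158, adjusted p = 9.57e-13). Csf1, the macrophage colony-stimulating factor, went from 10.32 to 321 CPM. Il6, the ligand of Il6ra, rose as well, from 0.943 to 14.6 CPM (log2 3.93, edgeR adjusted p = 7.34e-07). Adding Asxl1-MT2 to T618I raised 4, led by Il27 (2.61) and Ebi3 (2.59), which encode the subunits of interleukin 27, and lowered 3, led by Lif (-1.33) and Il6 (-1.18). T618I on top of Asxl1-MT2 raised 7 and lowered 0. With Asxl1-MT2 alone edgeR called 0 of the 8, with 3 at an unadjusted p under 0.05 and 0 called by DESeq2.

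Other receptors on the list, 23 of 32 tested, changed as follows. T618I alone raised 12 and lowered 5 (median 0.33), where 17.6% of all genes were higher and 15.9% lower. Asxl1-MT2 alone raised 1 and lowered 0 (1.24% and 0.622% of all). Asxl1-MT2 added to T618I raised 14 and lowered 4 (median 0.52, against 25.4% and 18.5% of all), and T618I added to Asxl1-MT2 raised 15 and lowered 2 (median 0.68, against 26.9% and 22.8% of all). With upper-quartile factors the last 2 splits were 14 with 5 and 14 with 3. Kit, the stem cell factor receptor, fell by 1.64 with T618I alone (326 to 105 CPM, edgeR adjusted p = 2.01e-09) and Flt3 fell by 1.85 (adjusted p = 0.0276). Flt3 averaged 1.44 CPM in Empty/Empty and 0.391 CPM in Empty/T618I. It passed the low-count filter only through libraries without T618I, so the direction of its fall was set by the filter. Osmr, the oncostatin M receptor, had 1 count over the Empty/Empty libraries and 281 with T618I alone, a ratio of 274 with an exact 95% interval of 48.7 to 10853, and Il7r had 1 and 2093. Csf1r, the receptor for macrophage colony-stimulating factor, was at 9.36, 15.5, 11.5 and 87.4 CPM with no insert, T618I alone, Asxl1-MT2 alone and both inserts. On the log2 scale its rise on adding Asxl1-MT2 to T618I was 2.49 and its interaction 2.20 ± 0.287 (adjusted p = 6.12e-05).

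All 11 Janus kinase and STAT genes were tested, with median log2 fold changes of 0.13 for T618I alone, 0.38 for Asxl1-MT2 added to T618I and 0.58 for T618I added to Asxl1-MT2. T618I alone changed 5 of the 11, where 33.5% of all genes were called. It raised 3, Jak2 (1.01 ± 0.165, edgeR adjusted p = 0.000122), Jak3 (0.56 ± 0.0998) and Stat3, and lowered Tyk2 (-0.52) and Stat4 (-0.42). Jak2, the kinase used by Epor and the beta chains, was at 57.0 CPM in the Empty/Empty libraries and 115 with T618I alone. Jak1, Stat5a and Stat5b gave 0.04, 0.13 and 0.19 and were not called. Asxl1-MT2 on top of T618I raised 9, led by Stat6 (1.07), and lowered Stat5a (-0.34), where 25.4% of all genes were higher and 18.5% lower. Adding T618I to Asxl1-MT2 raised 8 and lowered 0 (26.9% and 22.8% of all genes), with Jak2 at 1.37, Stat6 at 1.13, Stat3 at 0.91 and Stat5b at 0.58. With Asxl1-MT2 alone edgeR called 0 of the 11, with 1 at an unadjusted p under 0.05 and 0 called by DESeq2. With upper-quartile factors 6 rose and 1 fell on adding Asxl1-MT2 to T618I, and 7 rose and 1 fell on adding T618I to Asxl1-MT2.

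Of 18 adapters and Src-family kinases that act below these receptors, T618I alone raised 8 and lowered 3, Asxl1-MT2 alone raised 1, Asxl1-MT2 added to T618I raised 11 and lowered 0, and T618I added to Asxl1-MT2 raised 12 and lowered 0. The shares of all genes higher and lower were 17.6% and 15.9%, 1.24% and 0.622%, 25.4% and 18.5%, and 26.9% and 22.8% in the same order. With upper-quartile factors the last 2 splits were 10 higher with 4 lower and 10 higher with 2 lower. The median changes were 0.20 with T618I alone, 0.41 on adding Asxl1-MT2 and 0.59 with T618I added to Asxl1-MT2. Fgr rose in each comparison that involved T618I: by 1.64 with T618I alone, by 2.28 on adding Asxl1-MT2 and by 3.76 with T618I added to Asxl1-MT2. The docking protein gene Gab1 fell with T618I alone (-1.44) and rose on adding Asxl1-MT2 (2.08).

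Inhibitors of the pathway, 22 tested, had 7 higher and 2 lower with T618I alone, a share near the 33.5% of all genes called. With Asxl1-MT2 alone edgeR called 0, with 2 at an unadjusted p under 0.05 and 0 called by DESeq2. Adding Asxl1-MT2 to T618I raised 12 and lowered 3, where 43.9% of all genes were called. T618I added to Asxl1-MT2 raised 10 and lowered 1, a share like that of all genes (49.8%). With upper-quartile factors these splits were 10 with 6 and 9 with 2. The medians of the list were 0.17, 0.35 and 0.32 for T618I alone and these additions. Socs3, which blocks Csf3r and Il6st signalling, rose by 3.70 ± 0.118 with T618I alone (12.7 to 165 CPM, edgeR adjusted p = 9.57e-13) and by 4.42 with T618I added to Asxl1-MT2, to 229 CPM. Socs1 rose by 5.42 with T618I alone and fell by 1.12 on adding Asxl1-MT2. Cish, a STAT5 target, went from 4.31 to 21.7 CPM with T618I alone. Of 6 tested genes for shedding and cleavage of receptors, T618I alone raised Rhbdf2 (1.10) and lowered 3 (33.5% of all genes were called), among them the granule proteases Ctsg (-0.83) and Prtn3 (-0.67). Asxl1-MT2 alone raised Elane (0.55). Rhbdf2 also rose on adding Asxl1-MT2 to T618I, with 0 lower, and with T618I added to Asxl1-MT2, with 3 lower.

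Of 13 transcription factor genes known to act on receptor genes, T618I alone raised 7 and lowered 3, Asxl1-MT2 alone lowered 2, Asxl1-MT2 added to T618I raised 5 and lowered 7, and T618I added to Asxl1-MT2 raised 8 and lowered 3. The shares of all genes called were 33.5%, 1.86%, 43.9% and 49.8% in that order. The medians were 0.46 for T618I alone, -0.27 for Asxl1-MT2 added to T618I and 0.64 for T618I added to Asxl1-MT2. Gata1 and Gata2 rose by 3.25 and 2.62 with T618I alone and fell with Asxl1-MT2 alone (-1.63 and -0.70, edgeR adjusted p = 0.0139 for both). Cebpe, a granulocyte factor, fell with T618I alone (-0.87) and rose by 1.02 on adding Asxl1-MT2. Spi1, which encodes PU.1, was at 386, 415, 407 and 635 CPM with no insert, T618I alone, Asxl1-MT2 alone and both inserts.

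The genes whose log2 CPM over the 12 libraries was most like that of Csf3r, by Pearson's r as a description, were Alox5ap (0.995), Irf7 (0.993), G6pdx (0.991), Tmem50b (0.991) and Zyx (0.991). For Il6ra they were Numb (0.992), Sash3 (0.989) and Scarb2 (0.988), and for Csf2ra Dok3 (0.986), Ltb4r1 (0.979) and Ppp1ca (0.979). Csf2rb was most like Csf2rb2, Osm and Csf1, each at 0.997, and Csf2rb2 most like Csf1 (0.998), Ccnjl (0.997) and Csf2rb. Il6st was most like Wwtr1 (0.963), Med12l (0.960) and Trp53bp2 (0.959), and Il3ra most like Arsa (0.959), Panx1 (0.933) and Os9 (0.928). Il5ra was most like Perp (0.901), Mdga1 (0.900) and Prg3 (0.898), and Epor most like Il6 (0.960) and Slc45a3 (0.954). Among the receptor genes Csf3r and Il6ra had r = 0.958 and Csf2rb and Il6st 0.919, while Csf2ra and Csf2rb had 0.071 and Csf2rb2 and Il3ra -0.675. These values share the same 12 libraries and the 4 group means.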

How the data were processed

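RNA-seq libraries of 12 HoxB8 cell samples in 4 groups of 3 were used. The authors deposited 1 table of raw counts per gene symbol. The submitters' processing notes name mm10, Trimmomatic, STAR and DESeq2, with no versions. The counting tool, annotation and strand setting are not given in the sources used here, so reads of overlapping or near-identical genes may be split in unknown ways. Groups were taken from the sample titles. Nothing says that libraries came from separate cultures, so p-values reflect only how these libraries vary, which may be technical.

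Counts were filtered with filterByExpr, scaled with TMM factors (0.919 to 1.03) and fitted with 1 mean per group in edgeR 4.0.16 (quasi-likelihood test, R 4.3.3). Benjamini-Hochberg adjustment ran over 11578 genes, with calls at an adjusted p under 0.05. The interaction is the T618I change with Asxl1-MT2 minus that without it. CPM are counts scaled to a common TMM-adjusted library total. SD is over 3 libraries, and intervals are 95%. The fit was tested on simulated data. Positions are from GENCODE vM21 and promoters from RefSeq; alignment used Biopython 1.88. Alternatives were DESeq2 1.42.0, other scalings, no filter, fits of the compared groups only, each library left out, no C libraries, a block by letter and, added after seeing the data, the beta chain genes summed.

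The receptor genes and the gene lists were chosen with earlier results of these data known. Genes named were the 9 receptors, up to 2 called genes in each direction with the largest changes per list and comparison, fixed kinase, STAT and receptor genes, and the 5 (Csf3r) or 3 (others) most alike genes by r of log2 CPM with a prior count of 2. Genes outside this rule (neighbours within 200 kb, marker genes, Spi1) were named for their position or role. Some genes that this rule names are not reported here.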

Additional observations from a re-analysis of the deposited data

Results flagged for a closer look

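For 3 receptor genes the T618I change with Asxl1-MT2 differed from the T618I change without it, by edgeR's interaction term. The difference was 1.65 on the log2 scale for Csf3r, 1.23 for Csf2ra and 2.59 for Il6ra. All 3 libraries with both inserts were above the other 9 libraries for each of these genes. Groups of 3 libraries are too small for a check of single outlying libraries.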

How the results depend on the processing

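Over the 9 receptor genes, 5 comparisons and all alternatives, 839 values kept their direction and side of the threshold, 27 lost the call, 7 gained it and 11 changed sign. The sign changes touched uncalled values only. For Asxl1-MT2 alone, leaving out 1 library gave -0.18 to 0.078 for Csf3r, -0.026 to 0.058 for Csf2rb and -0.064 to 0.30 for Il3ra, and leaving out all C libraries gave -0.047 for Csf2rb and -0.017 for Il3ra. For the interaction of Epor these were -0.58 to 0.57 and 0.038. Genes called for Asxl1-MT2 alone numbered 215, against 359 with no low-count filter and 386 without the C libraries. Leaving out 1 library gave 60 to 276 genes, with 60 and 106 without Asxl1-MT2/Empty A and B and 101, 104 and 136 without Empty/Empty A, B and C. Receptor genes called then ranged from 0 to 1 for Asxl1-MT2 alone and from 3 to 5 for the interaction, with 5 (Il3ra and Il5ra added) without Empty/Empty C. The causes were not tested. Deviations from the group means correlated weakly between libraries of the same letter: 7 of 18 correlations were over 0.1 (range -0.061 to 0.22). Those over 0.1 were all for letters A and C, and what the letters stand for is not given. With a replicate block by letter, 4285, 317, 5444, 6114 and 2851 genes were called for T618I alone, Asxl1-MT2 alone, Asxl1-MT2 added to T618I, T618I added to Asxl1-MT2 and the interaction, and 7, 1, 6, 7 and 3 receptor genes. Depth limits Epor and Il5ra, with at most 40 counts in any library.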
